A study of Saccharomyces cerevisiae with 4 samples.

Results

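Sulfur assimilation and the synthesis of methionine and AdoMet (S-adenosylmethionine) were followed through 38 genes of Saccharomyces cerevisiae, chosen by systematic name from the 6600 coding sequences counted. They comprise the MET genes, SAM1 and SAM2, SAH1, the CYS, STR and HOM genes, the permeases for sulfate and methionine, MHT1, SAM4, JLP1 and BDS1. All 38 were found in the count table, and 37 had enough counts to be tested. SUL1 did not. The values are ribosome-protected mRNA fragments (ribosome profiling), counted per coding sequence in strain 74D-694, a laboratory strain known from prion research. The mutant carried an in-frame OAZ1 in place of the natural gene, whose antizyme product is made in full only when ribosomes change frame. The wild type (WT) kept the frameshifted gene, and each strain had 2 libraries. Both strains were in exponential growth in synthetic medium, and cycloheximide at 50 µg/mL was added to hold ribosomes on the mRNA. Whether replicates came from separate cultures is not labelled, and the p-values therefore reflect a spread between libraries that may be technical alone.

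Yeast takes up sulfate, activates it with ATP and reduces it to sulfide, which is joined to a homoserine derivative to give homocysteine. Homocysteine is methylated to methionine, or passed through transsulfuration to cysteine. Methionine is converted to AdoMet, the donor of most methyl groups, which in its decarboxylated form also gives the aminopropyl group of spermidine. The MET genes are activated by Met4, which is brought to promoters by Cbf1 and Met28 or by the zinc finger proteins Met31 and Met32, and is restrained through the ubiquitin ligase subunit Met30 when cysteine or AdoMet is plentiful.

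The 2 short sequences these activators recognise were searched for, on both strands, in the 300 bases before each start codon, since the known control of the pathway runs through them. The core bound by Cbf1, CACGTG, was found before 12 of the 38 sulfur genes (31.6%), against 213 of 5916 upstream windows of the same length over all genes (3.6%). The core of the Met31 and Met32 site, TGTGGC or its reverse complement, was found before 21 (55.3%), against 8.22% of all windows. Both were present before CYS3, MET10, MET14, MET16, MET22, MET28 and MET30, which are 7 of the 26 windows with both among the 5916. These matches are letters in a window, not measured binding. The following windows, from the RefSeq R64 reference genome (the assembly that sacCer3 denotes), are written 5′ to 3′ on the gene's strand with the matches in capitals. MET14 and MET16 are shown as enzyme genes with both cores, MHT1 because its window overlaps that of the divergent permease gene MMP1, and SAM4 and HOM2 because they had the smallest p-values of the set. No match to either core lies in the SAM4 and HOM2 windows.
MET14 (chrXI:439386-439685, minus strand): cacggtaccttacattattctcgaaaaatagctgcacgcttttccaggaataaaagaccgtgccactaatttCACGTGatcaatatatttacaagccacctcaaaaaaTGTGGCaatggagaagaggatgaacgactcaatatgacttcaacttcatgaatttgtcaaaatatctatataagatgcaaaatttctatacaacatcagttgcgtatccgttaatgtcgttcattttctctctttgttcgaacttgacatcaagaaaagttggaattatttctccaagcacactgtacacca
MET16 (chrXVI:877633-877932, minus strand): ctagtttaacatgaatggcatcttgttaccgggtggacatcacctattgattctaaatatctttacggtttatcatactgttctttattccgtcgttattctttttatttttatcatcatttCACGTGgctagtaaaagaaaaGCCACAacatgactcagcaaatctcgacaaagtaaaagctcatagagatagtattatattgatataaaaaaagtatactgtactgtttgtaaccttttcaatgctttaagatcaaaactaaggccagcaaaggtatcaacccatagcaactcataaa
MHT1 (chrXII:17614-17913, minus strand): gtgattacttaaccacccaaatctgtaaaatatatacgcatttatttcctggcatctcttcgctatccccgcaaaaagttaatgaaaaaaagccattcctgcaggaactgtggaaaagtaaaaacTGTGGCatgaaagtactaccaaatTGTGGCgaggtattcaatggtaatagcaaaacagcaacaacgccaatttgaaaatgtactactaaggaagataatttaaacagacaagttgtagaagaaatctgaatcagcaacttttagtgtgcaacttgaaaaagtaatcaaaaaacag
SAM4 (chrXVI:24787-25086, plus strand): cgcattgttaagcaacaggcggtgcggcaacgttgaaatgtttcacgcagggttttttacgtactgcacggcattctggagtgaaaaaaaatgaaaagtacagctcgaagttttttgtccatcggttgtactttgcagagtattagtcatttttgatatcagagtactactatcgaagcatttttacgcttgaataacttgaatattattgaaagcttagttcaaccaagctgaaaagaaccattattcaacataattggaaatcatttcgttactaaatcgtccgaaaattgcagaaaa
HOM2 (chrIV:770057-770356, plus strand): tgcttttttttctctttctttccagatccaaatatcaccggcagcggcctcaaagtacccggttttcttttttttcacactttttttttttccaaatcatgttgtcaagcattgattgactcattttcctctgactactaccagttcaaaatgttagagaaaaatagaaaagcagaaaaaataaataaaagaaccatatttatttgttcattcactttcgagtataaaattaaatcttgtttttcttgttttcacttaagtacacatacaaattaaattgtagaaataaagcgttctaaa

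**Figure D1:**
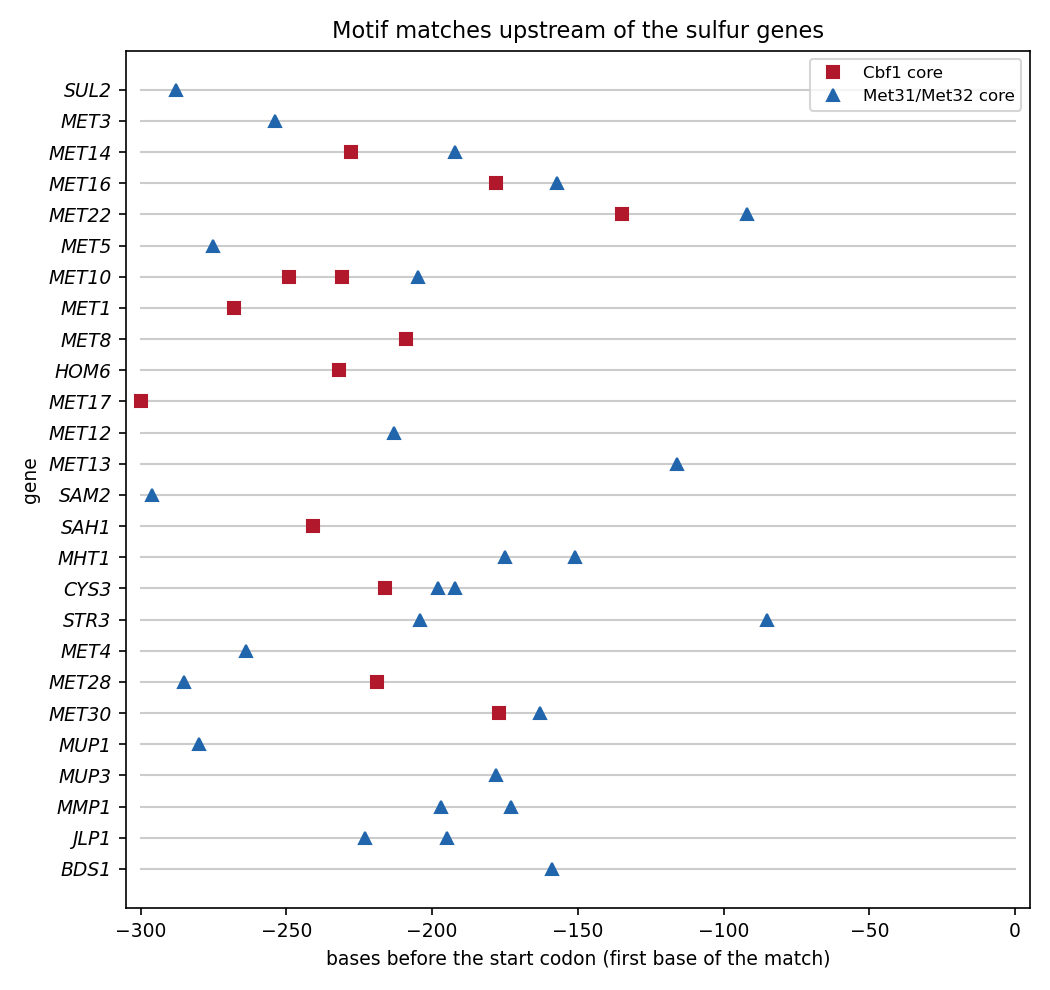
Matches to the Cbf1 core (squares) and the Met31/Met32 core (triangles), plotted by bases before the start codon, for the 26 sulfur genes with a match in the 300-base window (x axis). Each grey line is 1 gene's window; 7 genes hold both kinds of match, and the 2 triangles of MHT1 and of MMP1 are the same matches read from either gene.

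Total counts were 7571371 and 2826895 in mutant replicates 1 and 2 and 29671498 and 10202557 in WT replicates 1 and 2. A count of 0 allows up to 1.06 CPM (counts scaled to a total of 1000000) in the shallowest library and 0.101 CPM in the deepest. OAZ1 itself had 20.5 and 18.1 CPM in mutant and 12.7 and 10.7 CPM in WT, and did not pass (adjusted p = 0.755, edgeR). WT replicate 1 stood apart. Pairs of libraries were compared by the SD of their log2 CPM difference over the 4603 genes averaging 100 counts or more, which was 0.299 within mutant, 0.512 within WT and 0.224 between mutant replicate 1 and WT replicate 2. Over the 34 sulfur genes at that depth it was 0.209 within mutant, 0.462 within WT and 0.223 between mutant replicate 1 and WT replicate 2. CPM values are TMM-normalized, and fold changes are mutant over WT.

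The sulfur genes together held 2.52% and 2.37% of all counts in mutant replicates 1 and 2, and 2.23% and 2.38% in WT replicates 1 and 2, so the strains overlapped. Counts from a culture cannot tell fewer ribosomes per cell from fewer cells, nor a change in mRNA from a change in its translation. MET6, SAH1, SAM1, SAM2 and HOM2 made up 78.4% and 79% of the sulfur counts in mutant and 76.8% and 79.2% in WT. Per kb of coding sequence, the mean level over the 4 libraries was 3313 CPM per kb for SAH1, 2918 for MET6, 2487 for SAM2 and 2442 for SAM1 (percentiles 98.2 to 98.8 of 5210 genes ranked by level). The enzymes that reduce sulfate were well below this, at 107 CPM per kb for MET14, 56.8 for MET3, 49.2 for MET16, 41.6 for MET10 and 31.1 for MET5. The sulfate permease SUL2 had 3.59 CPM per kb, and JLP1 and BDS1, which free sulfur from sulfonates and sulfate esters, had 1.41 and 0.628.

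**Figure D2:**
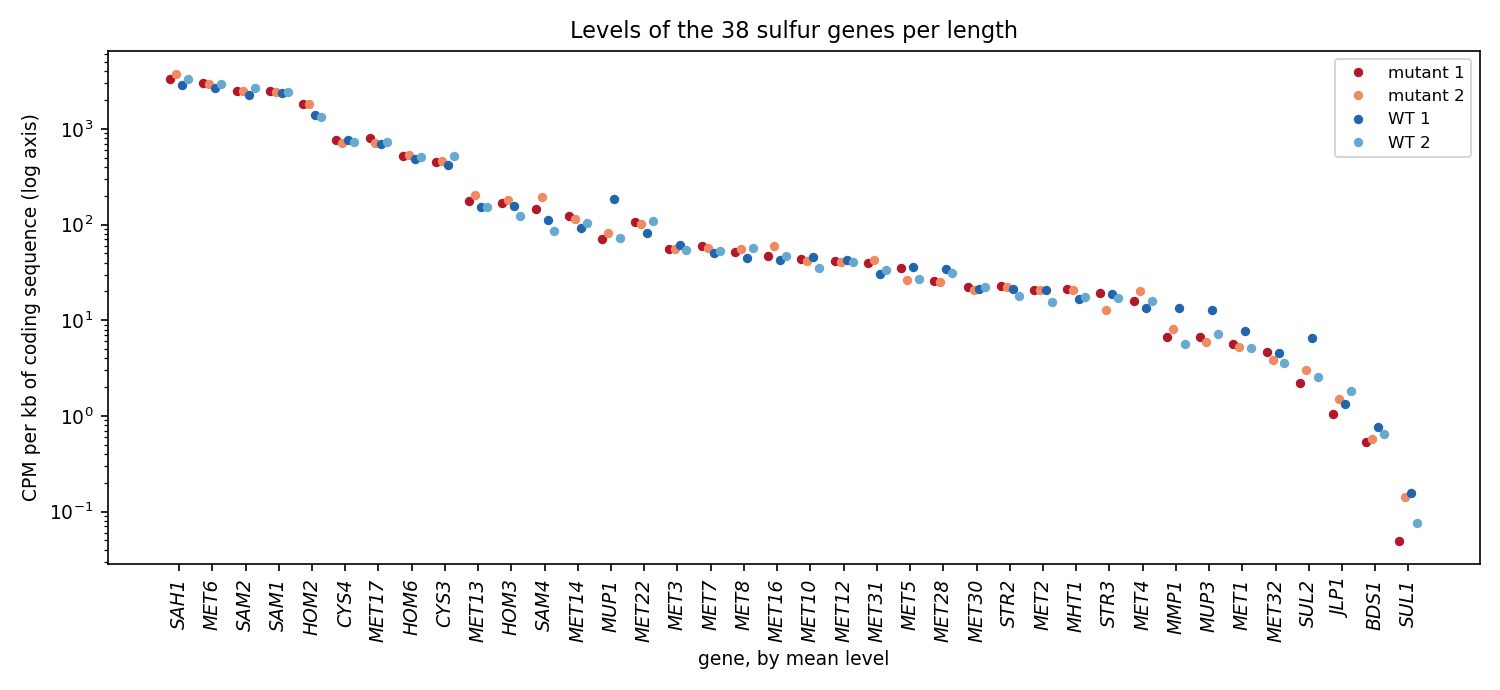
CPM per kb of coding sequence (log axis) of the 38 sulfur genes in the 2 mutant libraries (reds) and the 2 WT libraries (blues), ordered by mean level. Levels run from about 3313 CPM per kb for SAH1 to below 1 for BDS1 and SUL1, and the WT replicate 1 point lies above the others for MUP1, MUP3, MMP1 and SUL2.

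None of the 37 tested sulfur genes passed the adjusted threshold of 0.05 in edgeR's quasi-likelihood test, and neither did any of the 5233 genes tested (0% called). At an unadjusted p under 0.05 there were 2 sulfur genes, SAM4 and HOM2, both higher in mutant, where 5.45% of all genes lay under that value and 1.72% did so while higher in mutant. DESeq2 called none of the 38, against 0.0683% of all genes. The median log2 fold change of the tested sulfur genes was 0.07, against -0.01 over all genes tested, and 22 of 37 lay above 0 (59.5%, against 48.4% of all genes). The 2 mutant values did not overlap the 2 WT values for 16 of the 37 genes, where this held for 36.9% of all genes. Of these, 13 were higher in mutant (35.1% of the 37), against 19.1% of all genes, and 3 were lower (8.11% of the 37), against 17.9%. For 29 of the 37, the 95% interval of the fold change lay within 2-fold in either direction, as it did for 74.5% of all genes. The 8 others were SAM4, the permease genes SUL2, MUP1, MUP3 and MMP1, and the low-count genes MET32, JLP1 and BDS1.

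**Figure D3:**
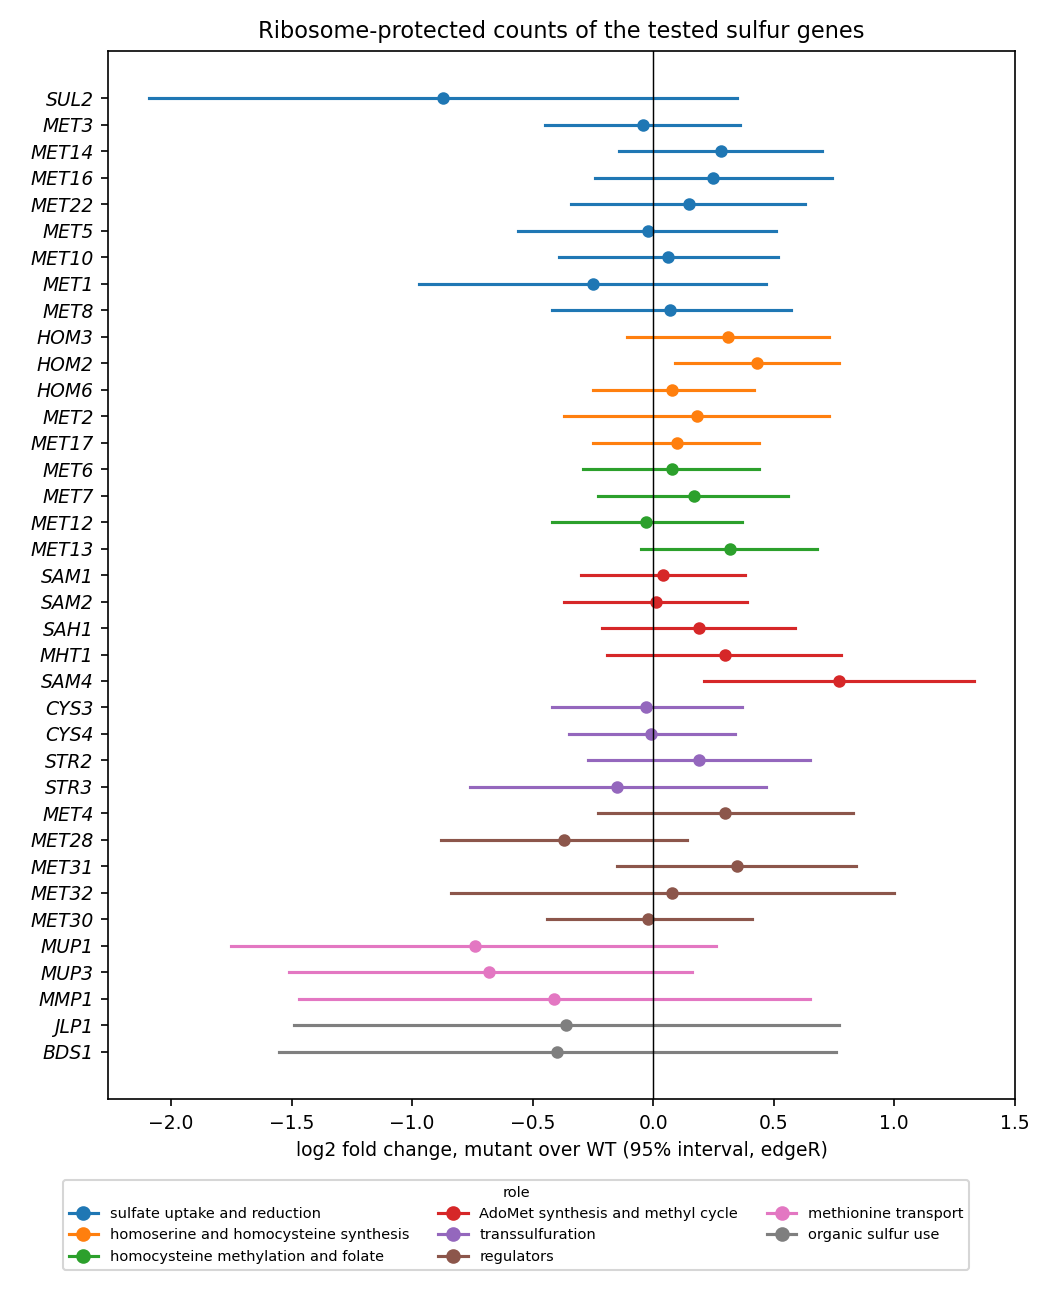
Log2 fold change, mutant over WT, of the 37 tested sulfur genes with its 95% interval (x axis), coloured by role; points are estimates and lines are intervals from 2 libraries per strain. The intervals of SAM4 (0.21 to 1.33) and HOM2 (0.09 to 0.77) lie above 0 and all others cross it.

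SAM4 (YPL273W, chrXVI:25087-26064, plus strand), which methylates homocysteine with AdoMet and so recycles it to methionine, had the largest fold change above 0 among the tested sulfur genes. It had 142 and 191 CPM in mutant replicates 1 and 2, and 111 and 83 CPM in WT replicates 1 and 2. Both mutant libraries lay above both WT libraries, with a wide spread inside each strain. The means were 166 ± 34.5 CPM in mutant and 96.9 ± 19.7 CPM in WT (SD, n = 2 each). The log2 fold change was 0.77 (SE 0.23, adjusted p = 0.755, edgeR). Without WT replicate 1 it was 0.99 (adjusted p = 0.000542, edgeR) and without WT replicate 2 it was 0.57 (adjusted p = 0.019, edgeR), while without mutant replicate 1 and without mutant replicate 2 it did not pass. Of all genes tested, 0.745% were called without WT replicate 1 (0.325% higher in mutant) and 19.2% without WT replicate 2 (4.35% higher in mutant). Those fits take the spread of the mutant pair for the single WT library left. The log2 fold change of SAM4 was 0.98 without mutant replicate 1 and 0.55 without mutant replicate 2. There the spread of the WT pair was taken for the single mutant library left. Of the 28-base stretches of SAM4, 24.2% also occur in another coding sequence, chiefly YMR321C, which had 1 and 0 counts in mutant and 2 and 1 in WT. How reads with several matches were counted is not given in the sources used here, so the level of SAM4 is uncertain to that degree.

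MHT1 (YLL062C) encodes the related enzyme that uses S-methylmethionine as the methyl donor. It had 20.8 and 20.3 CPM in mutant and 16.4 and 17.1 CPM in WT, with replicates within each strain close together and no overlap. These values rest on 162 and 55 counts in mutant and 491 and 176 counts in WT. The log2 fold change was 0.30 (95% interval -0.19 to 0.78, adjusted p = 0.772, edgeR). SAM4 exceeded MHT1 per kb by 6.79 and 9.33 times in mutant and by 6.73 and 4.83 times in WT. The AdoMet synthetase genes SAM1 and SAM2 differed little between the strains. SAM1 (YLR180W) had 2884 and 2806 CPM in mutant and 2748 and 2783 CPM in WT, and its log2 fold change was 0.04 (95% interval -0.30 to 0.38). SAM2 (YDR502C) had 2882 and 2885 CPM in mutant and 2621 and 3104 CPM in WT, with a log2 fold change of 0.01 (95% interval -0.37 to 0.39). The ratio of SAM1 to SAM2 per kb was 1.01 and 0.978 in mutant and 1.05 and 0.901 in WT, so ribosomes were divided almost equally between the paralogs. They share 5.7% and 5.67% of their 28-base stretches. SAH1 (YER043C), which hydrolyses the S-adenosylhomocysteine left after methyl transfer, had 4483 and 5053 CPM in mutant and 3851 and 4503 CPM in WT, a log2 fold change of 0.19 (95% interval -0.21 to 0.59).

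All 5 genes that build the carbon skeleton of homocysteine lay above 0, and none passed the test. HOM2 (YDR158W, chrIV:770357-771454, plus strand), aspartate semialdehyde dehydrogenase, had 2012 and 2006 CPM in mutant and 1545 and 1446 CPM in WT. Its replicates differed little and the strains did not overlap. The log2 fold change was 0.43 (SE 0.14, 95% interval 0.09 to 0.77, adjusted p = 0.755, edgeR), and it lay between 0.38 and 0.47 whichever library or setting was changed, with an adjusted p of 0.164 to 0.999 (edgeR or DESeq2). HOM3 (YER052C), the aspartate kinase that opens the branch, had 269 and 284 CPM in mutant and 247 and 197 CPM in WT (log2 fold change 0.31, 95% interval -0.11 to 0.73). HOM6 (YJR139C), homoserine dehydrogenase, had 563 and 579 CPM in mutant and 529 and 549 CPM in WT (log2 fold change 0.08, 95% interval -0.25 to 0.42). These 3 genes therefore all had non-overlapping strains, with unequal sizes of difference. Of all genes tested, 19.1% were likewise higher in mutant without overlap. The ratio of HOM2 to HOM6 per kb was 3.51 and 3.41 in mutant and 2.87 and 2.59 in WT. MET2 (YNL277W), homoserine O-acetyltransferase, had 30.3 and 30 CPM in mutant and 30.5 and 22.5 CPM in WT. MET17 (YLR303W), which joins sulfide to O-acetylhomoserine, had 1062 and 961 CPM in mutant and 928 and 965 CPM in WT (log2 fold change 0.10, 95% interval -0.25 to 0.44). For both of these the strains overlapped.

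Sulfate uptake, activation and reduction showed no common direction. Of 9 tested genes, counting the permease gene SUL2 described below, 5 lay above 0, with a median of 0.06, and no gene passed. MET3 (YJR010W), ATP sulfurylase, had 86 and 86.2 CPM in mutant and 93.5 and 83.6 CPM in WT. MET14 (YKL001C), APS kinase, had 74.1 and 69.2 CPM in mutant and 55.6 and 62.7 CPM in WT. MET16 (YPR167C), PAPS reductase, had 37.3 and 47 CPM in mutant and 33.6 and 36.9 CPM in WT. The strains overlapped for MET3 and not for MET14 or MET16, whose log2 fold changes were 0.28 (95% interval -0.14 to 0.70) and 0.25 (-0.24 to 0.74). MET22 (YOL064C), the phosphatase that clears the nucleotide by-product of PAPS use, had 115 and 109.5 CPM in mutant and 87.1 and 116 CPM in WT. For both subunits of sulfite reductase the strains overlapped. MET5 (YJR137C) had 152 and 115 CPM in mutant and 154 and 118 CPM in WT, and MET10 (YFR030W) had 134 and 131 CPM in mutant and 143 and 110.3 CPM in WT. The ratio of MET10 to MET5 per kb was 1.23 and 1.58 in mutant and 1.29 and 1.31 in WT. MET1 (YKR069W) and MET8 (YBR213W) make the siroheme of that enzyme. MET1 had 10 and 9.25 CPM in mutant and 13.8 and 9.05 CPM in WT, and MET8 had 43 and 45.9 CPM in mutant and 37 and 47.5 CPM in WT. The strains overlapped for both, and their mean levels were far apart, at 5.4 CPM per kb for MET1 and 53.9 for MET8 in mutant. SUL1 (YBR294W), a sulfate permease, had 1 and 1 counts in mutant and 12 and 2 counts in WT, too few for a test.

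Homocysteine methylation was led by MET6 (YER091C), the cobalamin-independent methionine synthase. MET6 had 6974 and 6835 CPM in mutant and 6208 and 6872 CPM in WT, a log2 fold change of 0.08 (95% interval -0.29 to 0.44). The methyl group comes from methylenetetrahydrofolate reductase, for which MET13 (YGL125W) encodes the major enzyme. MET13 had 321 and 367 CPM in mutant and 278 and 273 CPM in WT, without overlap, and a log2 fold change of 0.32 (95% interval -0.05 to 0.68, adjusted p = 0.755, edgeR). Its paralog MET12 (YPL023C) had 82 and 80.3 CPM in mutant and 84.2 and 80.9 CPM in WT, almost the same in every library. MET7 (YOR241W), which lengthens the glutamate tail of folates, had 98.1 and 94 CPM in mutant and 82.9 and 88 CPM in WT.

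Transsulfuration genes lay nearest to 0, with a median of -0.02 and 1 of 4 above 0. CYS4 (YGR155W), cystathionine beta-synthase, had 1175 and 1091 CPM in mutant and 1166 and 1108 CPM in WT, a log2 fold change of -0.01 (95% interval -0.35 to 0.34). CYS3 (YAL012W), cystathionine gamma-lyase, had 534 and 552 CPM in mutant and 496 and 610.2 CPM in WT (-0.03, 95% interval -0.42 to 0.37). Both intervals exclude a 2-fold difference in either direction. STR2 (YJR130C) and STR3 (YGL184C) belong to the reverse route from cysteine to homocysteine. STR2 had 43.5 and 42.2 CPM in mutant and 40.9 and 34.2 CPM in WT (log2 fold change 0.19, 95% interval -0.27 to 0.65). STR3 had 26.8 and 17.8 CPM in mutant and 26.4 and 23.9 CPM in WT (log2 fold change -0.15, 95% interval -0.76 to 0.47), with mutant replicate 2 the low library. Per kb, STR2 and STR3 averaged 22.3 and 15.9 CPM in mutant, against 743 for CYS4 and 458 for CYS3 in the same strain.

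The estimates of the regulators split in direction, and the 95% interval of each crossed 0. MET4 (YNL103W), the activator, had 32.3 and 41.1 CPM in mutant and 26.9 and 32.2 CPM in WT (log2 fold change 0.30, 95% interval -0.23 to 0.83). MET31 (YPL038W) had 21 and 22.6 CPM in mutant and 16.2 and 18 CPM in WT (log2 fold change 0.35, 95% interval -0.15 to 0.84). MET28 (YIR017C), the leucine zipper partner that steadies Cbf1 and Met4 on DNA, had 14.4 and 14.1 CPM in mutant and 19.3 and 17.5 CPM in WT. The strains did not overlap for any of these 3, where this held for 36.9% of all genes. MET28 was the one lower in mutant, with a log2 fold change of -0.37 (95% interval -0.88 to 0.14, adjusted p = 0.755, edgeR). MET28 kept its sign under every setting tried, between -0.43 and -0.30. MET30 (YIL046W) had 43.3 and 39.6 CPM in mutant and 41.2 and 42.8 CPM in WT. MET32 (YDR253C) was sparse, with 21 and 6 counts in mutant and 79 and 21 counts in WT, and MET31 exceeded it per kb by 8.42 and 11 times in mutant and by 6.62 and 9.5 times in WT.

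Of the 5 permease genes, the 4 that were tested had their highest value in WT replicate 1. MUP1 (YGR055W), the high-affinity methionine permease, had 123 and 141 CPM in mutant and 315 and 125 CPM in WT. MUP3 (YHL036W), a low-affinity methionine permease, had 10.9 and 9.62 CPM in mutant and 21.2 and 11.7 CPM in WT. MMP1 (YLL061W), the permease for S-methylmethionine, had 11.8 and 14.1 CPM in mutant and 23.6 and 9.83 CPM in WT. SUL2 (YLR092W) had 5.9 and 8.14 CPM in mutant and 17.6 and 6.81 CPM in WT. In each, WT replicate 1 was high and WT replicate 2 lay within or close to the mutant values. They were the 4 of 37 tested sulfur genes (10.8%) in which WT replicate 1 was at least 1.5 times every other library, a share close to the 11.9% of all genes tested. SUL1 was 1.08 times the next library there, on 12 counts. The log2 fold changes with all libraries were -0.74 for MUP1, -0.68 for MUP3, -0.41 for MMP1 and -0.87 for SUL2, none past the threshold (adjusted p = 0.755 to 0.865, edgeR). Without WT replicate 2 all 4 passed at -1.26, -1.01, -0.91 and -1.41, where 14.9% of all genes were called lower in mutant, and without WT replicate 1 they were 0.07, -0.16, 0.36 and -0.04. The values without WT replicate 2 rest on WT replicate 1 as the lone WT library. What sets this library apart was not tested.

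**Figure D4:**
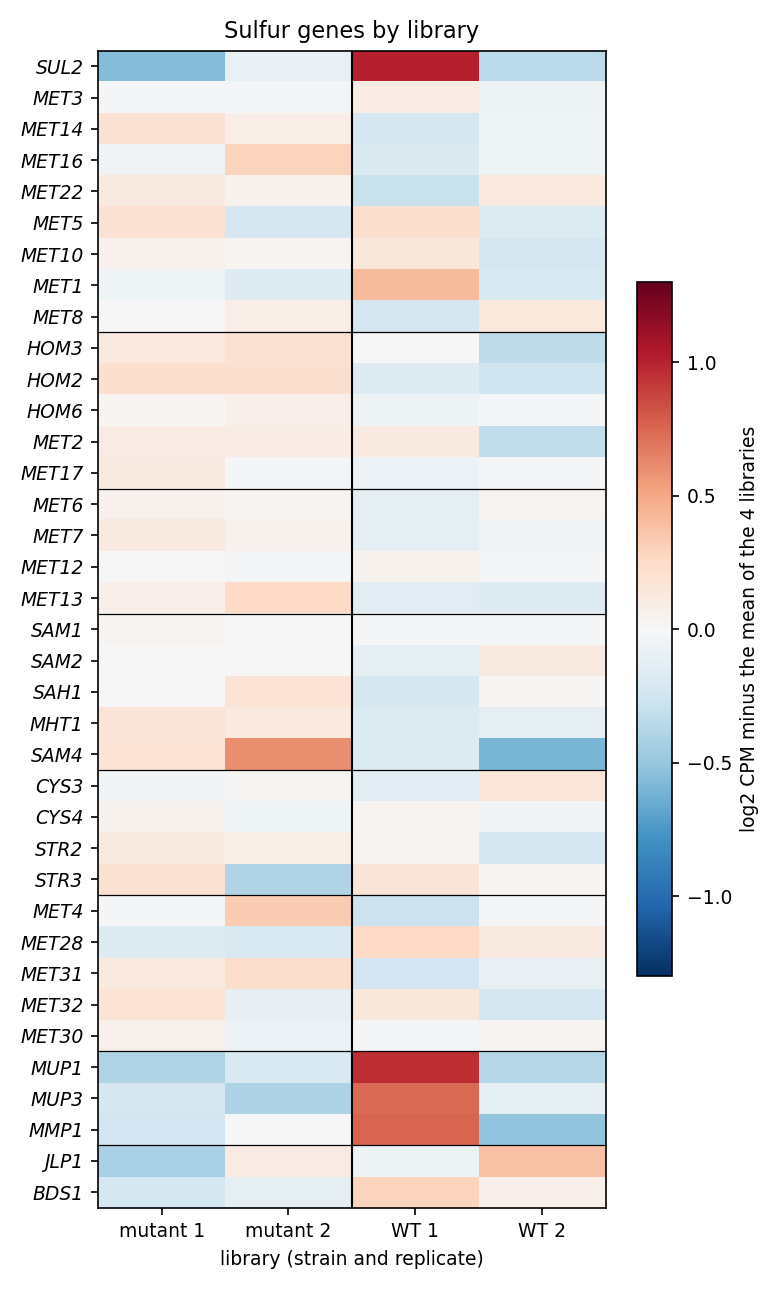
Log2 CPM of the 37 tested sulfur genes minus the gene's mean over the 4 libraries (colour), in the 2 mutant libraries on the left and the 2 WT libraries on the right; horizontal lines part the roles. The darkest cells are SUL2, MUP1, MUP3 and MMP1 in WT replicate 1, while most enzyme genes are pale in every library.

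MHT1 and MMP1 are transcribed away from each other from 342 bases on chromosome XII, of which the window shown above for MHT1 covers the 300 nearest to MHT1, yet their library profiles were unlike. The ratio of MMP1 to MHT1 per kb was 0.316 and 0.384 in mutant and 0.801 and 0.319 in WT, so WT replicate 1 was again the exception. SAM4 lies 385 bases from SAM3, which encodes the AdoMet permease and is on the same strand. SAM3 had 70.1 and 76.6 CPM in mutant and 137 and 71.4 CPM in WT, high in WT replicate 1 where SAM4 was not.

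**Figure D5:**
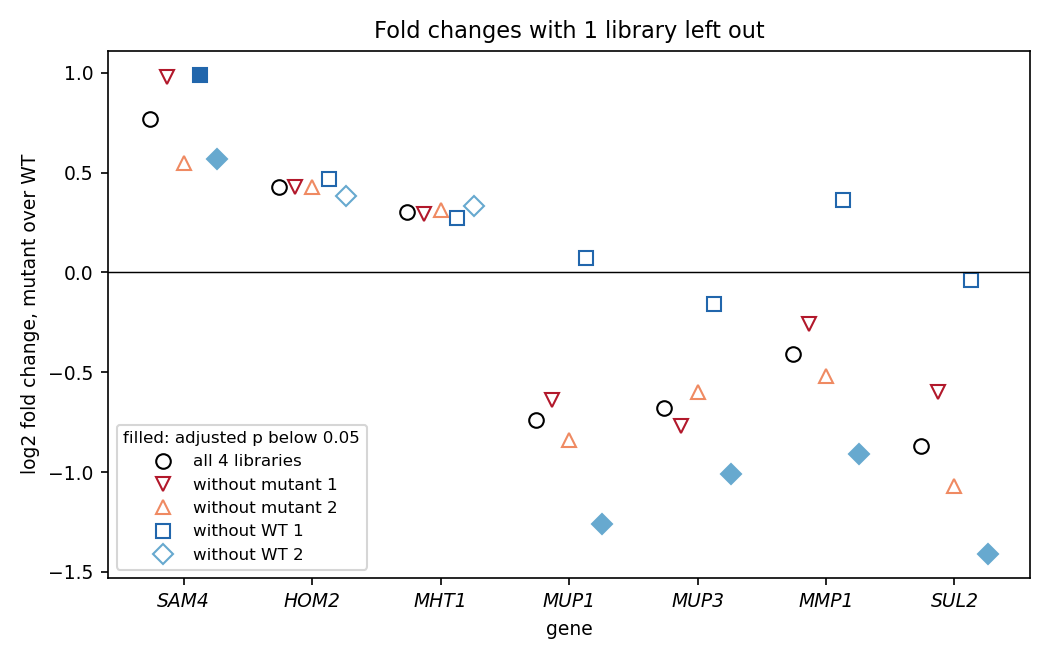
Log2 fold change, mutant over WT, of 7 sulfur genes with all 4 libraries and with each library left out in turn (symbols); filled symbols passed an adjusted p of 0.05 (edgeR). SAM4, HOM2 and MHT1 stay above 0 throughout, whereas MUP1, MUP3, MMP1 and SUL2 are called without WT replicate 2 and lie between -0.16 and 0.36 without WT replicate 1.

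Genes grouped by the upstream matches had median log2 fold changes of 0.06 for the 7 with both cores, 0.08 for the 5 with CACGTG alone, -0.09 for the 14 with TGTGGC alone and 0.18 for the 11 tested genes with neither. The ranges overlapped, and the TGTGGC class holds SUL2, MUP1, MUP3 and MMP1. JLP1 (YLL057C) had 10 and 5 counts in mutant and 49 and 23 counts in WT, and BDS1 (YOL164W) had 8 and 3 counts in mutant and 44 and 13 counts in WT. Their log2 fold changes were -0.36 and -0.40, with 95% intervals of -1.49 to 0.77 and -1.55 to 0.76. Both intervals reach past a 2-fold decrease, so one was not excluded at these counts.

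A further 31 genes linked to the pathway were listed, for glutathione, thioredoxin, the ubiquitin ligase of Met30, folate and threonine branches and transport, of which 28 were tested and none passed (0% of all genes called). CBF1 had 59.9 and 72.5 CPM in mutant and 78.4 and 84.5 CPM in WT, a log2 fold change of -0.30 (95% interval -0.75 to 0.14). ADO1, the adenosine kinase that clears a product of Sah1, had 1152 and 1315 CPM in mutant and 956 and 1076 CPM in WT, a log2 fold change of 0.28 (95% interval -0.10 to 0.66). The strains did not overlap for CBF1, lower in mutant, or for ADO1, higher in mutant, where 36.9% of all genes did not overlap. SSU1, the sulfite exporter, had 10.8 and 10.7 CPM in mutant and 28.9 and 13.7 CPM in WT (95% interval of the log2 fold change -1.95 to -0.05, adjusted p = 0.755, edgeR). MSM1, the mitochondrial methionyl-tRNA synthetase, had 8.6 and 4.07 CPM in mutant and 18.4 and 10.1 CPM in WT (log2 fold change -1.08, 95% interval -2.15 to -0.02, adjusted p = 0.755, edgeR). Both stood highest in WT replicate 1, as did SAM3 and the glutathione transporter gene OPT1, chosen after its values were seen. Without WT replicate 2 these 4 of the 30 listed genes then tested were called lower in mutant, where 14.9% of all genes were, and without WT replicate 1 none of the listed genes was called, where 0.745% of all genes were.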

How the data were processed

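The deposited table held whole-number counts of ribosome-protected fragments per coding sequence, not normalized by the authors, with 1 column per library. Per the submitters' processing notes, Bowtie2, DESeq2 and sacCer3 were used. Not given in the sources used here: counting tool, read-length filter, strand setting and treatment of reads with several matches. Header and data lines differ in their tabs, so column names were assigned in order, and "if" in them was read as in-frame. Of 6600 rows, 746 had no count. Symbols and coordinates come from RefSeq R64, in which 5917 rows were found.

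The test was edgeR 4.0.16 (R 4.3.3; glmQLFit, glmQLFTest, two-sided, TMM, filterByExpr with a minimum count of 10 and a minimum total of 15, Benjamini-Hochberg at 0.05 over 5233 genes) and checked on simulated counts. The simulation gave every gene and library the same spread beyond sampling noise, with no library set apart. That check therefore does not cover the spread between the libraries seen here. SEs and 95% intervals derive from the fold change and its F. DESeq2 1.42.0 was an alternative, with size factor (RLE) scaling, no filter, each library left out and a replicate block. Limits from counts of 0 (3 counts) cover counting error only. All 38 sulfur genes are named, grouped by role, with OAZ1 and, of the 31 further genes, CBF1, SAM3, ADO1 and the 4 of smallest p (SSU1, MSM1, and again ADO1 and CBF1). OPT1 was added after its values were seen. Genes and lists were chosen with earlier results of these data known. No libraries of a group agreed within sampling noise (chi-square per degree of freedom 9.78 in mutant, 103 in WT). Tables were made with Python 3.11.15, NumPy 2.4.6 and pandas 2.3.3, and plots with matplotlib 3.10.9.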

Additional observations from a re-analysis of the deposited data

How the results depend on the processing

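Over all genes DESeq2 called 4, against 0 in edgeR, and leaving out 1 library gave 0 to 1008 calls over all genes (39 without WT replicate 1, 1008 without WT replicate 2), 0 to 5 over the sulfur genes and 0 to 4 over the further pathway genes. The median log2 fold change of the sulfur genes was 0.03 to 0.08 across the leave-outs, 0.03 being without mutant replicate 1, and 21 to 26 genes lay above 0. The causes were not tested. With size factor (RLE) scaling and with no filter the counts called stayed at 0. Whether the numbers 1 and 2 pair the libraries is not labelled. The correlation of same-numbered deviations was 0.0807 over 4603 genes, which cannot decide it. The replicate block called 0 genes and 0 sulfur genes. Its smallest adjusted p was 0.21, against 0.755 in the main fit (edgeR). Genes at an unadjusted p under 0.05 (edgeR) numbered 447 with the block and 285 without it. Of 295 values of single genes under an alternative, 268 kept their direction and side of the threshold, 6 passed it and 21 changed sign, in 16 of 37 genes, each with 1 library left out. With each library left out in turn these genes ranged as follows: MET3 -0.12 to 0.04, MET22 -0.05 to 0.37, MET5 -0.23 to 0.19, MET10 -0.11 to 0.26, MET1 -0.50 to 0.11, MET8 -0.10 to 0.26, MET2 -0.02 to 0.42, MET12 -0.05 to 0.00, SAM2 -0.11 to 0.14, CYS3 -0.17 to 0.13, CYS4 -0.05 to 0.05, STR3 -0.50 to 0.09, MET32 -0.09 to 0.32, MET30 -0.08 to 0.04, MUP1 -1.26 to 0.07, MMP1 -0.91 to 0.36. In 10 of the 21 the library left out was WT replicate 1. BDS1 was not tested without WT replicate 1. Depth limits MET32, JLP1, BDS1 and SUL1 most, the last below the filter. Counts in mutant replicate 2 were also low for SUL2 (22), MET1 (25), MUP3 (26), MET28 (38) and MMP1 (38).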
